A study of Mus musculus with 11 samples.

Results

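Collagen-induced arthritis (CIA) was compared with sham treatment in DBA/1 mice on a regular diet, in synovial membrane, which lines joint cavities. RNA sequencing libraries were taken by their titles and treatment labels. They were sham replicates a, b and c and CIA replicates a, b and c, which make 6 of the 11 libraries in the series, and all 18804 genes of the deposited table were eligible. The other 5 libraries, 2 of sham and 3 of CIA mice labelled as high-fat diet, entered the model of the spread and served as other samples of the same strain and tissue. All 11 samples share the DBA/1 strain, the tissue and the extraction, and the growth notes give a regular diet for all 11, also for the 5 labelled high-fat. Age, the day after immunisation, the score of the joints, what sham mice received and whether each replicate is 1 mouse or a pool are not given in the sources used here. P-values therefore measure only how far these samples spread, and that spread may be technical. The 6 libraries held 13677638 to 16302601 counts each.

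In CIA, mice are immunised with type II collagen, the main collagen of cartilage, and T cells and antibodies against it lead to inflamed joints. DBA/1 is the classic strain for the model because its H2q class II molecule presents collagen peptides to T helper cells. Interferon-gamma, made by T and natural killer cells, switches on MHC class II genes, guanylate-binding proteins (Gbp) and immunity-related GTPases, while macrophages and synovial fibroblasts make the cytokines and proteases that damage cartilage.

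The libraries were not equally alike. Levels below are counts-per-million (CPM) of TMM-scaled library totals. In a principal component analysis of log2 CPM over the 6 libraries the first component held 53.7% of the variance, and on it CIA b lay at 110.4 and the other 5 between -27.2 and -7.7. CIA a and c lay at -41.8 and -42.5 on the second component (25.9% of the variance), and the 3 sham libraries between 9.6 and 58.4. Across genes CIA a and c correlated at r = 0.982, and CIA b correlated with them at 0.905 and 0.888. In CIA b 83 genes stood at 10 CPM or more and at least 8 times the highest of the other 5 libraries, among them the neutrophil chemokine gene Cxcl5, the acute phase gene Saa3 and Il6. Sham c had 18 such genes, led by the muscle genes Myh4, Ckm and Atp2a1, and CIA c had 6, led by the cartilage genes Clec3a, Frzb and Chad. Sham a had 1, and sham b and CIA a had 0. In CIA b 6 genes were low, with each other library at 10 CPM or more and at least 8 times CIA b. Among these 6 were the lining marker Clic5 and Lyve1, and the other libraries had 0 such low genes. The main genes below are therefore given by library and the others by range or fold change, and list medians are given with and without CIA b.

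Of the markers of the labelled tissue, Prg4 was abundant in every library, while the lining markers Clic5 and Htra4 were low in CIA b (values below). Prg4, which encodes the lubricant lubricin of the synovial lining, stood at 7781, 8248 and 8597 CPM in sham a, b and c and at 6058, 3976 and 9398 CPM in CIA a, b and c. The dissected tissue also held fat, since the 17 adipocyte genes summed to 44400 to 58000 CPM in sham. The muscle list summed to 1430 CPM in sham c and to between 68.1 and 84.5 CPM in the other 5 libraries. The skin list summed to 15.0 to 25.4 CPM over the 6 libraries, of which Krt10 made 3.21 to 5.81 CPM, Sbsn 3.6 to 10.4 CPM and Trp63 7.64 to 14.7 CPM. The keratinocyte genes Krtdap, Flg and Krt15 were at 0 in all 6.

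Across the genome, 4 genes passed an adjusted p of 0.05 and all 4 were higher in CIA, which is 0.0269% of the 14892 genes tested (edgeR quasi-likelihood test, Benjamini-Hochberg adjustment, as for every adjusted p below). No gene passed as lower (0 genes, 0%), although 1092 genes were lower (7.33%) and 1487 higher (9.99%) at an unadjusted p under 0.05, and DESeq2 called 467 higher and 370 lower. With only the 6 regular-diet libraries in the edgeR fit no gene passed, with 1151 higher and 976 lower at an unadjusted p under 0.05. In 1818 genes (12.2%) every CIA library lay above every sham library, and in 1936 genes (13.0%) every CIA library lay below. Without CIA b these counts were 3929 (26.4%) and 4118 (27.7%). The median log2 fold change of all tested genes was 0.06, and -0.01 without CIA b.

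Of the 4 genes, 3 are neighbours in the Serpina3 cluster on chromosome 12. This family of serine protease inhibitors is a single gene in humans and a row of similar genes in mice, and Serpina3g is known as an inhibitor of lysosomal cathepsins in leukocytes. Serpina3i stood at 1.27, 1.14 and 1.57 CPM in sham a, b and c and at 20.6, 23.2 and 13.1 CPM in CIA a, b and c. Every CIA library was thus more than 8 times the highest sham library. Serpina3i rose by a log2 fold change of 3.83 ± 0.38 (SE, adjusted p = 0.0107), and its mean was 1.33 ± 0.221 CPM in 3 sham and 19.0 ± 5.29 CPM in 3 CIA libraries (SD).

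Serpina3g stood at 5.57, 2.86 and 2.16 CPM in sham a, b and c and at 81.3, 47.3 and 32.9 CPM in CIA a, b and c. The groups did not overlap, and CIA a was the highest library. Its log2 fold change was 3.94 ± 0.47 (SE, adjusted p = 0.0266). Serpina3f stood at 0.159, 0.381 and 0.131 CPM in sham, which are 2, 6 and 2 counts, and at 18.7, 7.46 and 5.79 CPM in CIA a, b and c. Its log2 fold change was 5.50 ± 0.65 (SE, adjusted p = 0.0266), and the low sham counts make its size imprecise.

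The other measured members of the cluster did not pass the test, and the median log2 fold change of the 7 tested members was 0.08, or 0.26 without CIA b. Serpina3n, known in mice to inhibit granzyme B, is the most abundant member per gene length, at 227, 366 and 245 transcripts-per-million (TPM) in sham and 469, 261 and 404 TPM in CIA. On the same scale Serpina3g stood at 2.30 to 4.72 TPM in sham and 36.6 to 93.6 TPM in CIA. In CPM Serpina3n overlapped between groups, at 294 to 432 in sham and 278 to 452 in CIA, as did Serpina3c, Serpina3m and Serpina3k. Because these genes are similar in sequence, how the authors' counting shared reads among them is uncertain. Serpina3i kept its call in 13 of the 18 alternative analyses, Serpina3g in 10 and Serpina3f in 7, and all 3 stayed higher in each of the 18. Leaving out sham a or sham c left 0 genes called in all, leaving out CIA b left 2 and leaving out CIA c gave 16. Without CIA b the log2 fold changes were 3.65, 4.03 and 5.70 for Serpina3i, Serpina3g and Serpina3f.

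**Figure D1:**
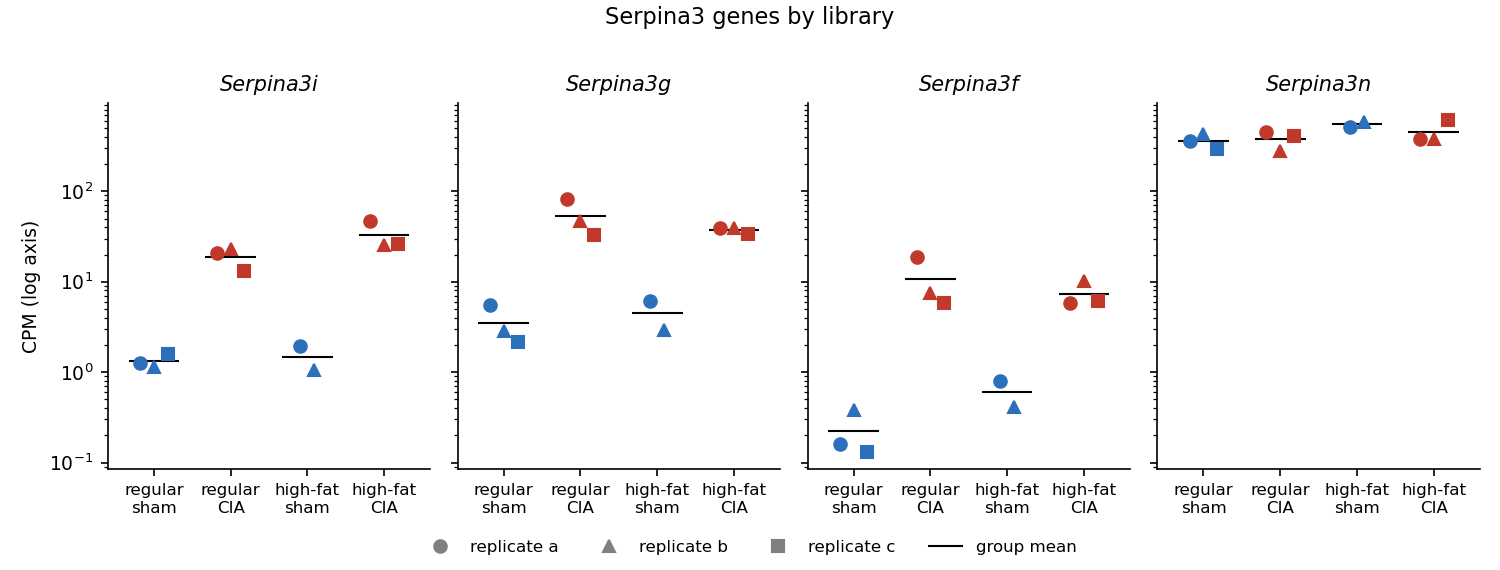
CPM on a log axis of 4 Serpina3 genes in each of the 11 libraries (blue, sham; red, CIA; symbols, replicates; bars, group means). For Serpina3i, Serpina3g and Serpina3f all CIA libraries of both diets lie above all sham libraries, while Serpina3n overlaps on the regular diet.

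The stretches before the starts of these 3 genes are shown because they rose together and share a motif. Each is the 160 bases that end at the base before the RefSeq start (GRCm38.p6, 5′ to 3′ on the gene's strand, which is plus for all 3). Capitals mark the GAS motif TTCNNNGAA, known as the interferon-gamma activated site, and its overlap with the interferon response core GAAANNGAA where that is present.
Serpina3f, chr12:104214384-104214543: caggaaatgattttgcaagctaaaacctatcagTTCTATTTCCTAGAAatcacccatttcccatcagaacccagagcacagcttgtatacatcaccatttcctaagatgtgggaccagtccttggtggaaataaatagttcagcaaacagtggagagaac
Serpina3g, chr12:104235987-104236146: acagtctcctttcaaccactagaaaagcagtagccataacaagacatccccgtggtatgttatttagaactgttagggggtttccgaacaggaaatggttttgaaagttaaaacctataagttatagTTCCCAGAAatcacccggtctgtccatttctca
Serpina3i, chr12:104262962-104263121: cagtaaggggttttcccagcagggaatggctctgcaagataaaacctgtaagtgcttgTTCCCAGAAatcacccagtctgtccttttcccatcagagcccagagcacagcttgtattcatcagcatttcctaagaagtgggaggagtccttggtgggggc
A GAS motif begins 121 bases before the start in Serpina3f, 33 in Serpina3g and 102 in Serpina3i, and in Serpina3f an interferon response core begins at 127 and overlaps it. Both strands were searched in the RefSeq windows of 300 bases (250 before and 50 after a start). GAS letters were present in 8.30% of the 11762 tested genes with a window and interferon response core letters in 8.98%. RefSeq windows matched 5 of the 7 tested Serpina3 genes, and 3 of these 5 held GAS letters. Such matches describe letters and show no binding.

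The 17 interferon-gamma inducible GTPases, which attack vacuoles that hold microbes, were all higher in CIA and none overlapped between groups. Their median log2 fold change was 2.2, and 2.52 without CIA b. The background is 12.2% of genes with every CIA library above every sham library, and no member passed the test over all genes. Summed over the family, the level was 439, 381 and 388 CPM in sham a, b and c and 2810, 1140 and 1590 CPM in CIA a, b and c. CIA a was the highest library of every member, and CIA b the lowest CIA library of 15.

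Iigp1, an immunity-related GTPase, stood at 27.5, 29.2 and 28.7 CPM in sham a, b and c and at 463, 173 and 253 CPM in CIA a, b and c (log2 fold change 3.38 ± 0.60 SE, adjusted p = 0.136). The sham libraries differed by less than 2 CPM and every CIA library was several times higher. Tgtp1 stood at 10.98, 8.89 and 8.92 CPM in sham and 132, 53.5 and 75.0 CPM in CIA (3.18 ± 0.55 SE, adjusted p = 0.133). Gbp3 had the smallest adjusted p of the family, at 36.8, 25.7 and 27.5 CPM in sham and 138, 103 and 75.2 CPM in CIA (1.81 ± 0.30 SE, adjusted p = 0.119). Gbp6 had the closest groups, with 68.0 to 71.0 CPM in sham and 92.3 to 297 CPM in CIA, where CIA b was lowest. The log2 fold changes of the family ran from 1.33 in Irgm1 to 3.38 in Iigp1. Tgtp1 and Tgtp2, and several Gbp genes, are near copies of each other, so their separate values are less certain than their sum.

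The promoters of Tgtp1, Igtp and Irgm2 are shown because they carry both motifs side by side. They are given as above, with the GAS and the interferon response core in capitals (Tgtp1 on the minus strand, the others on the plus strand).
Tgtp1, chr11:48992247-48992406: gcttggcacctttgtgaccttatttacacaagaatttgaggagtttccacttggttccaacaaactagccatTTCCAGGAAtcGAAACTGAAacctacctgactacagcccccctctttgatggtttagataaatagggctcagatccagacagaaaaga
Igtp, chr11:58199396-58199555: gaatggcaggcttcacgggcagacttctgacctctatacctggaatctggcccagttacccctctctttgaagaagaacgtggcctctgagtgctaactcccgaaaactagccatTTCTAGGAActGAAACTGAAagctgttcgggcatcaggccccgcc
Irgm2, chr11:58214817-58214976: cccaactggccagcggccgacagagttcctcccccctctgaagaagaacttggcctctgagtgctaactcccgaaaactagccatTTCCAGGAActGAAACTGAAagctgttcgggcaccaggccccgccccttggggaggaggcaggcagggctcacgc
The core begins 11 bases after the GAS in each, at 77, 34 and 64 bases before the start. RefSeq windows matched 11 of the 17 GTPase genes. Of these, 10 held the interferon response core (90.9%) and 6 held GAS letters (54.5%). For Igtp the level was 35.1, 24.7 and 22.6 CPM in sham and 183, 80.5 and 107 CPM in CIA, and for Irgm2 it was 29.0, 29.8 and 21.4 CPM in sham and 190, 60.2 and 118 CPM in CIA. In both genes CIA b was the lowest CIA library and still above every sham library.

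The MHC class II genes had a similar order between groups and a different one among the CIA libraries, since CIA c was the lowest of them for all 10 tested members. All 10 were higher with no overlap, against 12.2% of all genes with every CIA library above every sham library. The median log2 fold change was 1.21, or 1.06 without CIA b. No member passed the test. Ciita, the master activator of class II transcription, stood at 6.92, 10.6 and 10.95 CPM in sham a, b and c and at 63.1, 85.9 and 28.8 CPM in CIA a, b and c (2.64 ± 0.37 SE, adjusted p = 0.0731). CIA b was here the highest library.

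H2-Aa encodes the alpha chain of class II and stood at 185, 177 and 213 CPM in sham and 648, 556 and 364 CPM in CIA (1.45 ± 0.24 SE, adjusted p = 0.119). Its partner H2-Ab1 stood at 132, 135 and 156 CPM in sham and 400, 483 and 224 CPM in CIA (1.39 ± 0.29 SE, adjusted p = 0.162). Cd74, the invariant chain that guards the groove of the molecule, stood at 269, 348 and 361 CPM in sham and 989, 750 and 590 CPM in CIA (1.25 ± 0.25 SE, adjusted p = 0.148). For each of these 3 genes the lowest CIA library lay above every sham library. The peptide loading genes H2-DMa and H2-DMb1 had log2 fold changes of 1.07 ± 0.24 and 1.15 ± 0.28 (SE, adjusted p = 0.175 each), and their inhibitor H2-Ob one of 1.70 ± 0.41 (adjusted p = 0.175). Per gene length H2-Eb1 was far lower than H2-Ab1, at 2.58 to 3.63 TPM against 165 to 257 TPM in sham. DBA/1 carries class II alleles that differ from the reference strain, and the part of this in the counted reads was not tested.

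**Figure D2:**
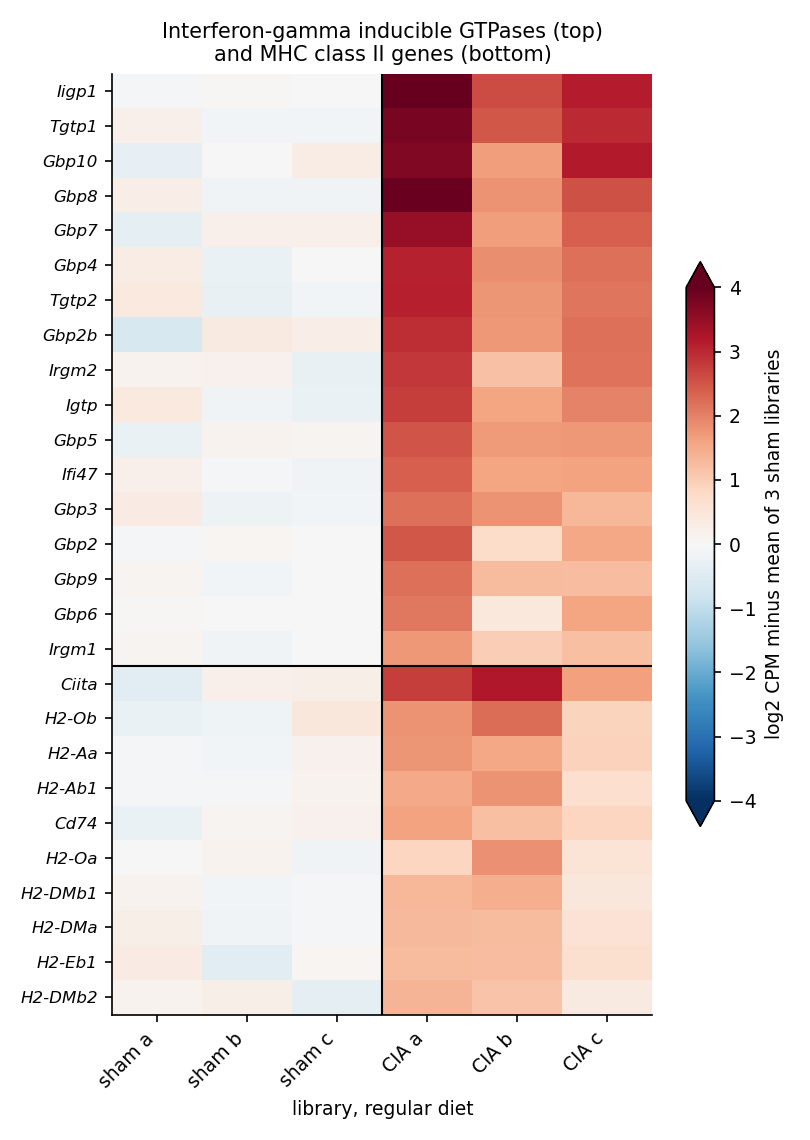
Log2 CPM minus the mean of the 3 sham libraries for 17 interferon-gamma inducible GTPases (above the line) and 10 MHC class II genes (below) in the 6 regular-diet libraries. The GTPases are highest in CIA a, whereas Ciita, H2-Ob, H2-Ab1, H2-Oa and H2-DMb1 are highest in CIA b, and all members lie above sham in every CIA library.

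Class II promoters are known to hold a conserved Y box that binds the factor NF-Y. The promoters of H2-Aa (minus strand) and H2-Eb1 (plus strand) are shown with the Y box letters ATTGG, or CCAAT on the other strand, in capitals.
H2-Aa, chr17:34287824-34287983: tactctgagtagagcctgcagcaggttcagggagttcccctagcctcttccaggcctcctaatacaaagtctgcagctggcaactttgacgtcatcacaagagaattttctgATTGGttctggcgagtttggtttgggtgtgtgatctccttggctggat
H2-Eb1, chr17:34305707-34305866: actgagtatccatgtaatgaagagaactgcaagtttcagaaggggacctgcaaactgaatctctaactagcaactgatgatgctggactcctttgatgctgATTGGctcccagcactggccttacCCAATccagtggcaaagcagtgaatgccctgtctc
The Y box begins 48 bases before the start in H2-Aa, and at 59 and 35 bases in H2-Eb1. It was present in 7 of the 7 class II genes with a window (100%), while these short letters occur in 42.5% of tested genes. Of these 7 genes 1 held GAS letters and 0 the interferon response core.

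MHC class I and its peptide loading machinery, which present peptides to CD8 T cells, divided by gene. Of 19 members 7 lay above sham in every CIA library and 1 below, against 12.2% and 13.0% of all genes. The median log2 fold change was 0.39 with and without CIA b. Nlrc5, the activator of class I genes, stood at 29.1, 27.8 and 29.9 CPM in sham and 96.2, 74.1 and 80.4 CPM in CIA (1.53 ± 0.28 SE, adjusted p = 0.136). The peptide transporter gene Tap1 stood at 69.3, 65.7 and 58.6 CPM in sham and 182, 133 and 120 CPM in CIA (1.17 ± 0.20 SE, adjusted p = 0.133). For both genes the lowest CIA library was more than 1.5 times the highest sham library.

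The abundant classical class I genes overlapped. H2-K1 stood at 1544 to 2311 CPM in sham and 1101 to 1972 CPM in CIA, and H2-D1 at 4449 to 5509 CPM in sham and 2744 to 5624 CPM in CIA. CIA b was the lowest library for both. The nonclassical genes H2-Q6 and H2-Q7, which are close copies of each other, had log2 fold changes of 1.47 ± 0.38 and 1.03 ± 0.27 (SE, adjusted p = 0.180 each). Psmb8, a subunit of the immunoproteasome, stood at 77.7 to 123 CPM in sham and 103 to 158 CPM in CIA, and Psme2, a proteasome activator, was lower in every CIA library (-0.43 ± 0.20 SE, adjusted p = 0.312).

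Several transcription factors downstream of interferon receptors were higher, and 3 of 4 receptor genes overlapped between groups. Irf8, a factor of myeloid cells, stood at 12.1, 14.3 and 13.1 CPM in sham and 34.0, 58.6 and 27.6 CPM in CIA (1.61 ± 0.33 SE, adjusted p = 0.158). It did not overlap between the groups, and Stat2 and Irf9 did not either, at 1.13 ± 0.26 and 0.82 ± 0.21 (SE, adjusted p = 0.175 and 0.180). The receptor genes Ifngr2, Ifnar1 and Ifngr1 overlapped, and Ifnar2 had every CIA library below sham, at -0.41 ± 0.15 (SE, adjusted p = 0.223). Irf1 stood at 111 to 147 CPM in sham and 132 to 145 CPM in CIA, and the interferon-gamma gene Ifng itself had 1 to 2 counts per library in sham and 2 to 4 in CIA, which was too few to test. Over the 15 members of interferon signalling, 8 lay above sham in every CIA library and 1 below, against 12.2% and 13.0% of all genes. Their median was 0.82, and 0.48 without CIA b.

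Type I interferon response genes, which also answer other signals, were higher in 19 of 20 members. Of these, 13 had every CIA library above sham, against 12.2% of all genes. The median of the list was 0.84, and 0.89 without CIA b. Ifi44 had the smallest adjusted p of the list, at 3.82, 5.33 and 3.34 CPM in sham and 20.1, 23.4 and 16.9 CPM in CIA (2.27 ± 0.30 SE, adjusted p = 0.0598). Zbp1, a sensor of nucleic acids, stood at 4.61, 3.87 and 2.23 CPM in sham and 14.5, 27.1 and 8.23 CPM in CIA. Oas2, an antiviral enzyme, stood at 6.999 to 7.36 CPM in sham and at 14.3, 60.9 and 18.2 CPM in CIA, so CIA b was more than 3 times the other CIA libraries. Isg15, Usp18, Irf7 and Rsad2, common members of the same response, overlapped between the groups. The chemokine genes Cxcl9 and Cxcl10, targets of interferon-gamma, stood at 31.9 to 34.8 and 0.131 to 0.636 CPM in sham, and at 87.5, 32.0 and 73.5 CPM (Cxcl9) and 1.77, 2.88 and 1.03 CPM (Cxcl10) in CIA a, b and c. Cxcl9 was at sham level in CIA b.

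Markers of leukocytes differed by cell type. Of 20 T and natural killer cell genes, 20 were higher and 13 lay above sham in every CIA library, against 12.2% of all genes, with a median of 1.62, and 1.24 without CIA b. Cd5 had 0 counts in sham, and with 3 counts per sham library in place of 0 for this gene the median was 1.57. Il2rb, a receptor chain for interleukins, stood at 1.03, 1.84 and 1.25 CPM in sham and 6.25, 4.91 and 5.85 CPM in CIA (2.03 ± 0.36 SE, adjusted p = 0.136). Ncr1, a receptor of natural killer cells, stood at 0.636 to 0.852 CPM in sham and 2.25 to 2.52 CPM in CIA. Both were similar in the 3 CIA libraries. Cd4 and Cd3g were highest in CIA b, at 12.4 and 3.47 CPM against 2.65 and 0.631 in CIA a. The list summed to 8.91 to 13.0 CPM in sham and 24.3 to 51.9 CPM in CIA, so its members rest on few reads. B and plasma cell genes had 9 of 14 members lower, 0 above and 2 below sham in every CIA library, and a median of -0.16, or 0.07 without CIA b. Dendritic cell genes had 3 of 11 members above and 3 below, and a median of 0.16, or -0.20 without CIA b. For both lists the shares over all genes are 12.2% above and 13.0% below. In bulk tissue, more cells of a type and more RNA per cell cannot be told apart.

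Monocyte and macrophage genes were higher in 16 of 16 members, 8 of them without overlap against 12.2% of all genes, with a median of 1.42, and 0.64 without CIA b. Ccr2, the chemokine receptor that brings monocytes from the blood, stood at 27.6, 28.8 and 20.2 CPM in sham and 140, 227 and 68.8 CPM in CIA (2.51 ± 0.45 SE, adjusted p = 0.136). Mpeg1, a pore-forming protein of phagocytes, stood at 36.2, 47.4 and 45.2 CPM in sham and 176, 281 and 110 CPM in CIA (2.14 ± 0.45 SE, adjusted p = 0.158). Both had the order b, a, c among the CIA libraries. Cybb, the catalytic chain of the phagocyte oxidase, was instead highest in CIA a, at 118, 71.2 and 88.6 CPM in CIA against 22.3 to 45.1 CPM in sham.

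Resident and lining macrophage genes showed no common direction, with 6 of 13 higher and a median of -0.03, or -0.08 without CIA b. Cx3cr1 stood at 18.7, 20.8 and 18.8 CPM in sham and 48.4, 88.7 and 31.2 CPM in CIA (1.53 ± 0.38 SE, adjusted p = 0.175). Retnla, a marker of alternatively activated macrophages, stood lower, at 113, 79.0 and 51.0 CPM in sham and 26.6, 6.87 and 29.0 CPM in CIA. The eosinophil chemokine gene Ccl24, also known from that state, stood at 11.6, 9.96 and 8.52 CPM in sham and 3.41, 0.851 and 1.74 CPM in CIA. The groups did not overlap for either gene. Lyve1 overlapped, at 58.3 and 96.8 CPM in CIA a and c against 4.06 CPM in CIA b.

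Receptors of innate immunity were higher in 19 of 19 Toll-like and C-type lectin genes, 10 of them without overlap against 12.2% of all genes, with a median of 1.30, and 0.71 without CIA b. Tlr1, which pairs with Tlr2 to sense bacterial lipoproteins, stood at 0.239, 0.254 and 0.262 CPM in sham and 1.89, 5.89 and 1.93 CPM in CIA (3.64 ± 0.56 SE, adjusted p = 0.0945). Fcgr4, an activating receptor for IgG, stood at 0.318, 0.444 and 0.590 CPM in sham and 5.24, 8.51 and 5.27 CPM in CIA (3.78 ± 0.60 SE, adjusted p = 0.119). For both genes the lowest CIA library was more than 7 times the highest sham library. The inhibitory receptor gene Fcgr2b and the shared signalling chain gene Fcer1g overlapped, and both were highest in CIA b. C3ar1, the receptor of the complement fragment C3a, stood at 22.3, 21.2 and 16.2 CPM in sham and 46.4, 62.2 and 32.0 CPM in CIA (1.24 ± 0.23 SE, adjusted p = 0.136). Of the 18 complement-list genes 4 lay above sham in every CIA library and 1 below, against 12.2% and 13.0% of all genes.

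On the regular diet several cytokines and chemokines of acute inflammation were high in 1 of the 3 CIA libraries. The high-fat medians of both lists are given below. Il1b, a driver of joint inflammation, stood at 1.19, 1.46 and 0.852 CPM in sham a, b and c and at 4.80, 163 and 1.93 CPM in CIA a, b and c. The groups did not overlap, and the value of CIA b was more than 30 times that of CIA a. Il6 stood at 0.0635 to 0.159 CPM in sham (1 to 2 counts) and at 0.126, 16.0 and 0.193 CPM in CIA. Saa3 stood at 1.59, 2.03 and 0.328 CPM in sham and 4.99, 635 and 0.900 CPM in CIA, and Cxcl5 at 0.0656 to 0.190 CPM in sham and 0.379, 103 and 0.129 CPM in CIA. For Il6, Saa3 and Cxcl5, CIA c lay at sham level or within 0.1 CPM of it. CIA b was the highest CIA library for 13 of 16 cytokine genes and the lowest for 1, Il12b. Il12b stood at 0.16, 0.32 and 0.52 CPM in sham and 2.21, 0.39 and 2.25 CPM in CIA. Its log2 fold change was 2.23, and 2.69 without CIA b. The median over 16 cytokine genes was 2.2, and 0.06 without CIA b. Over 23 chemokine genes the median was 1.91, and 0.19 without CIA b.

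Of 23 chemokine-list members 7 lay above and 1 below sham in every CIA library, against 12.2% and 13.0% of all genes. Ccl8, a chemokine for monocytes and T cells, was 1 of the 7. It stood at 5.65, 2.73 and 3.87 CPM in sham and 28.6, 66.5 and 11.1 CPM in CIA (3.12 ± 0.57 SE, adjusted p = 0.136). Its log2 fold change was 2.29 without CIA b. Cxcl1, a chemokine for neutrophils, stood at 2.35 to 3.61 CPM in sham, 1.14 and 1.29 CPM in CIA a and c, and 81.2 CPM in CIA b. It thus lay below sham in CIA a and c, with a log2 fold change of 3.14 with all libraries and -1.37 without CIA b. NF-kappa-B genes had a median of 0.86, and -0.06 without CIA b. Tnfaip3, a feedback inhibitor of that pathway, lay above sham in every CIA library, at 10.2, 13.1 and 14.0 CPM in sham and 21.6, 28.9 and 17.2 CPM in CIA.

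**Figure D3:**
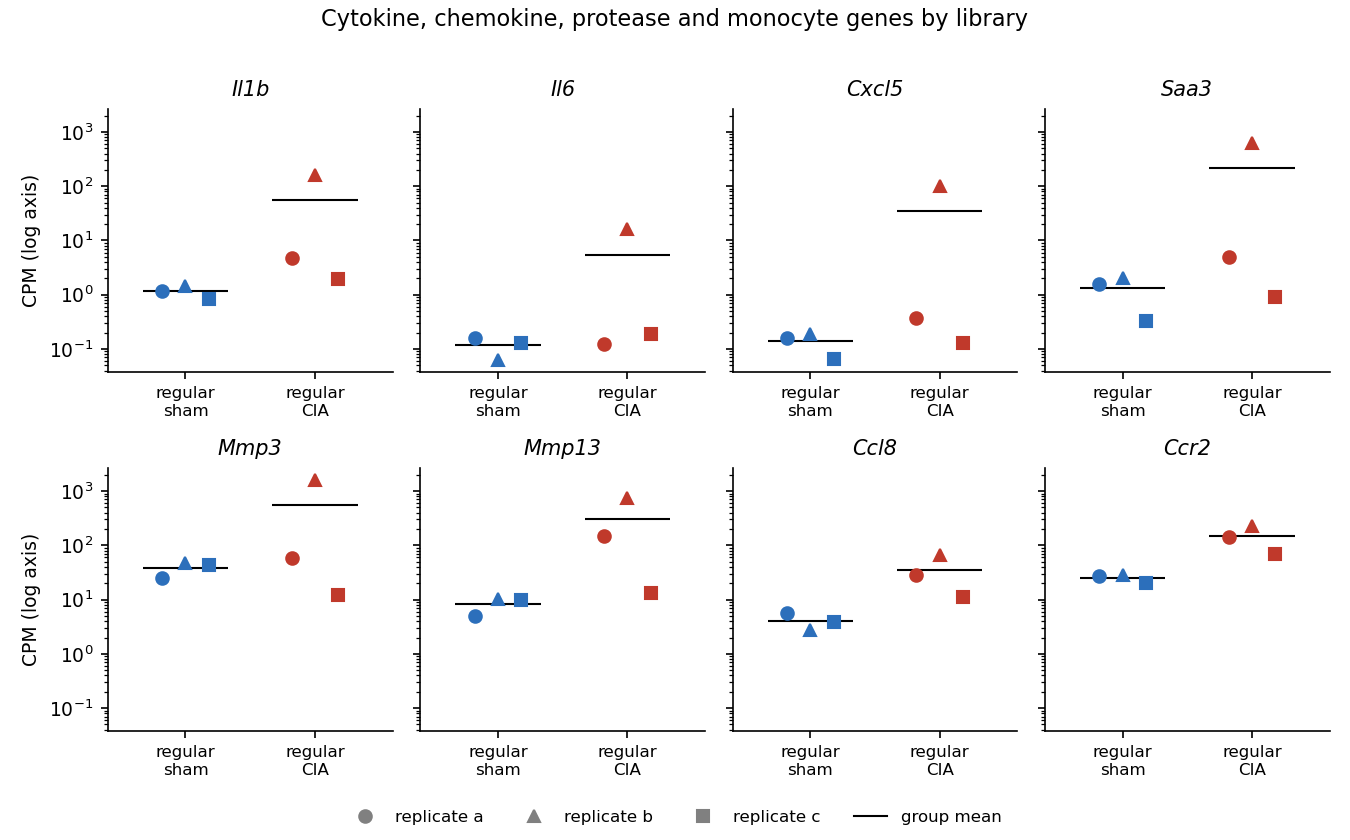
CPM on a log axis of 8 genes in the 6 regular-diet libraries (blue, sham; red, CIA; symbols, replicates; bars, group means). Il6, Cxcl5 and Saa3 are high in CIA b and near sham in CIA c, Mmp3 lies below sham in CIA c, whereas Ccl8 and Ccr2 lie above sham in all 3 CIA libraries.

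Neutrophil genes were higher in 15 of 15 members, 10 of them without overlap against 12.2% of all genes, with a median of 2.22, and 1.79 without CIA b. CIA b was the highest CIA library for 9 members and the lowest for 5. Csf3r, the receptor for granulocyte colony-stimulating factor, stood at 4.85 to 8.63 CPM in sham and 18.1, 432 and 15.1 CPM in CIA a, b and c, and the chemokine receptor gene Cxcr2 at 0.459 to 2.16 CPM in sham and 4.48, 83.2 and 5.47 CPM in CIA. The granule genes Ngp and Ltf, which neutrophil precursors transcribe in the bone marrow, were lowest in CIA b. Ngp stood at 17.1 to 70.6 CPM in sham and 131, 11.97 and 244 CPM in CIA, and Ltf at 8.39 to 34.8 CPM in sham and 79.9, 6.28 and 130 CPM in CIA. Over the 11 marrow precursor genes 0 lay above sham in every CIA library, and 7 did so without CIA b, where the share over all genes was 26.4% in place of 12.2%. The list summed to 270, 34.9 and 473 CPM in CIA a, b and c and to 61.6 to 154 CPM in sham. Some bone matrix genes were likewise higher in CIA a and c. Ibsp, bone sialoprotein, stood at 42.2, 17.7 and 195 CPM in CIA against 19.9 to 28.9 CPM in sham, and Sost, made by osteocytes, at 3.47, 0 and 15.3 CPM against 0 to 1.51 CPM. Of the 12 osteoblast and bone genes 3 lay above sham in every CIA library, and 9 did so without CIA b, beside the same shares over all genes. The bone median was 1.48, or 1.29 without CIA b, and the marrow median 0.93, or 1.26. Whether marrow and bone in the dissected tissue differ between the groups was not tested.

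Enzymes of cartilage destruction were high in CIA b, and Mmp13 in CIA a as well. Mmp13, the collagenase of arthritic joints, stood at 4.93, 10.2 and 9.77 CPM in sham and 151, 754 and 13.0 CPM in CIA (5.20 ± 1.19 SE, adjusted p = 0.175). Mmp3, stromelysin, stood at 25.1, 47.5 and 43.9 CPM in sham and 57.6, 1609 and 12.3 CPM in CIA, so CIA c lay below sham. The protease inhibitor gene Timp1 stood at 24.6 to 65.0 CPM in sham and 33.5, 740 and 20.9 CPM in CIA. Over 13 members the median was 1.07, and 0.32 without CIA b. Every CIA library lay above sham in 3 members and below in 1, against 12.2% and 13.0% of all genes.

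Collagen and matrix genes had a median of 0.84 over 23 members, and 0.32 without CIA b. Col12a1, a fibril-associated collagen of stressed tissue, stood at 4.38, 7.997 and 7.08 CPM in sham and 38.3, 195 and 34.7 CPM in CIA (3.78 ± 0.72 SE, adjusted p = 0.141). It lay more than 4 times above sham in each CIA library, unlike Col1a1, at 846 to 1614 CPM in sham and 1981, 10110 and 1190 CPM in CIA. Hif1a, which encodes the oxygen-sensing factor, stood at 68.6, 82.0 and 70.9 CPM in sham and 135, 297 and 111 CPM in CIA (1.29 ± 0.38 SE, adjusted p = 0.187). The endothelial and leukocyte capture list had 7 of 13 members higher and a median of 0.06, or 0.04 without CIA b, which was below 0 in 4 of the 6 fits that left out 1 library. Of its members, the selectin genes Selp and Sele, which slow leukocytes in vessels, lay above sham in every CIA library, with log2 fold changes of 2.15 ± 0.57 and 2.62 ± 0.79 (SE, adjusted p = 0.180 and 0.189).

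CIA c was the highest CIA library for 11 of 14 cartilage genes. Acan, the aggrecan core protein, stood at 8.59, 8.06 and 15.9 CPM in sham and 17.5, 169 and 273 CPM in CIA (3.81 ± 0.91 SE, adjusted p = 0.175). Col11a1 stood at 2.67 to 3.61 CPM in sham and 6.12, 44.2 and 52.7 CPM in CIA (3.41 ± 0.84 SE, adjusted p = 0.175). Both genes lay above sham in every CIA library. The chondrocyte-defining Col2a1 did not, at 77.0, 19.6 and 40.9 CPM in sham and 95.5, 4.71 and 535 CPM in CIA, nor did Chad, at 21.7 to 71.0 CPM in sham and 9.98, 1.96 and 756 CPM in CIA. The median of the list was 1.92, with 1.66 without CIA b and 0.13 without CIA c. The share of cartilage in each dissection was not tested.

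Mast cell proteases stood lower. Mcpt4, a chymase, stood at 13.4, 9.01 and 11.2 CPM in sham and 2.97, 3.27 and 3.73 CPM in CIA (-1.75 ± 0.26 SE, adjusted p = 0.0945). The CIA libraries were within 1 CPM of each other and each was under the lowest sham library by more than 5 CPM. Cma1 and Tpsb2, a chymase and a tryptase of the same granules, did not overlap either, at -1.42 ± 0.31 and -1.43 ± 0.37 (SE, adjusted p = 0.175 and 0.180). Cpa3, the granule carboxypeptidase, stood at 4.44 to 5.01 CPM in sham and 3.47, 1.37 and 3.21 CPM in CIA. The histamine enzyme gene Hdc, which neutrophils and macrophages also express, went the other way, at 5.65 to 6.92 CPM in sham and 12.3, 62.2 and 11.8 CPM in CIA. The transcription factor gene Gata2 overlapped, at 30.3 to 32.9 CPM in sham and 26.6 to 35.0 CPM in CIA. Of 8 tested members 4 lay below sham in every CIA library and 1 above, against 13.0% and 12.2% of all genes. The median of the list was -0.46, and -0.37 without CIA b.

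Synovial fibroblast genes separated about as often as all genes, of which 12.2% lay above and 13.0% below sham in every CIA library. Of 11 lining genes 2 lay above and 1 below, and of 11 sublining genes 1 and 1. The adhesion gene Vcam1 stood at 28.3, 26.3 and 27.7 CPM in sham and 69.2, 132 and 32.2 CPM in CIA, and Pdgfra, a growth factor receptor of fibroblasts, at 95.2 to 132 CPM in sham and 142 to 222 CPM in CIA. Has1, a hyaluronan synthase, stood lower, at 72.9, 115 and 104 CPM in sham and 29.4, 58.5 and 43.2 CPM in CIA. The lining markers Clic5 and Htra4 stood at 33.04 and 48.3 CPM in CIA b, against 271 to 445 and 331 to 470 CPM in sham. In CIA a and c they stood at 340 and 539 CPM (Clic5) and 219 and 580 CPM (Htra4).

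Nuclear genes of oxidative phosphorylation, the aerobic production of ATP, stood lower in 28 of 28 members, 22 of them with every CIA library below sham, against 13.0% of all genes. Their median was -0.72, and -0.55 without CIA b, where 24 stood lower. Ndufa1, a subunit of complex I, stood at 168, 93.9 and 94.2 CPM in sham and 54.4, 44.8 and 57.9 CPM in CIA (-1.18 ± 0.24 SE, adjusted p = 0.158). Cox6c, of complex IV, stood at 572, 312 and 333 CPM in sham and 176, 189 and 204 CPM in CIA (-1.10 ± 0.25 SE, adjusted p = 0.175). In both genes sham a was the highest library by more than 1.5 times, and the median of the list without sham a was -0.65. Mitochondrial ribosomal protein genes stood lower in 16 of 18 members, 12 of them without overlap, with a median of -0.64, and -0.63 without CIA b. Without sham a that median was -0.42. Proteasome genes had 9 of 18 members below sham in every CIA library and a median of -0.44, or -0.42 without CIA b. Their median without sham a was -0.28.

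Among cytosolic ribosomal protein genes all 30 stood lower, but only 1, Rplp2, had every CIA library below sham, and 29 did so without CIA b. The share of all genes below sham was 13.0% with and 27.7% without CIA b. The median of the ribosomal list was -0.39, with -0.80 without CIA b and -0.17 without sham a. The list summed to 21900, 14100 and 12700 CPM in sham a, b and c and to 9860, 17400 and 10100 CPM in CIA a, b and c. AP-1 and immediate early genes had a similar split, with 7 of 15 higher with all libraries and 0 of 15 without CIA b, where 11 lay below sham in both CIA a and c, against 27.7% of all genes. The AP-1 median was -0.00, or -0.94 without CIA b. Fos, which is induced within minutes of a stimulus or of handling, stood at 36.6, 61.1 and 93.2 CPM in sham and 16.3, 418 and 20.5 CPM in CIA. Cell cycle genes had medians of 0.48 with and -0.53 without CIA b. Of the heat shock genes, Hspb1 stood at 71.8 to 102 CPM in sham and 38.6 to 48.2 CPM in CIA (-1.05 ± 0.25 SE, adjusted p = 0.175). The part of tissue handling in these genes was not tested.

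**Figure D4:**
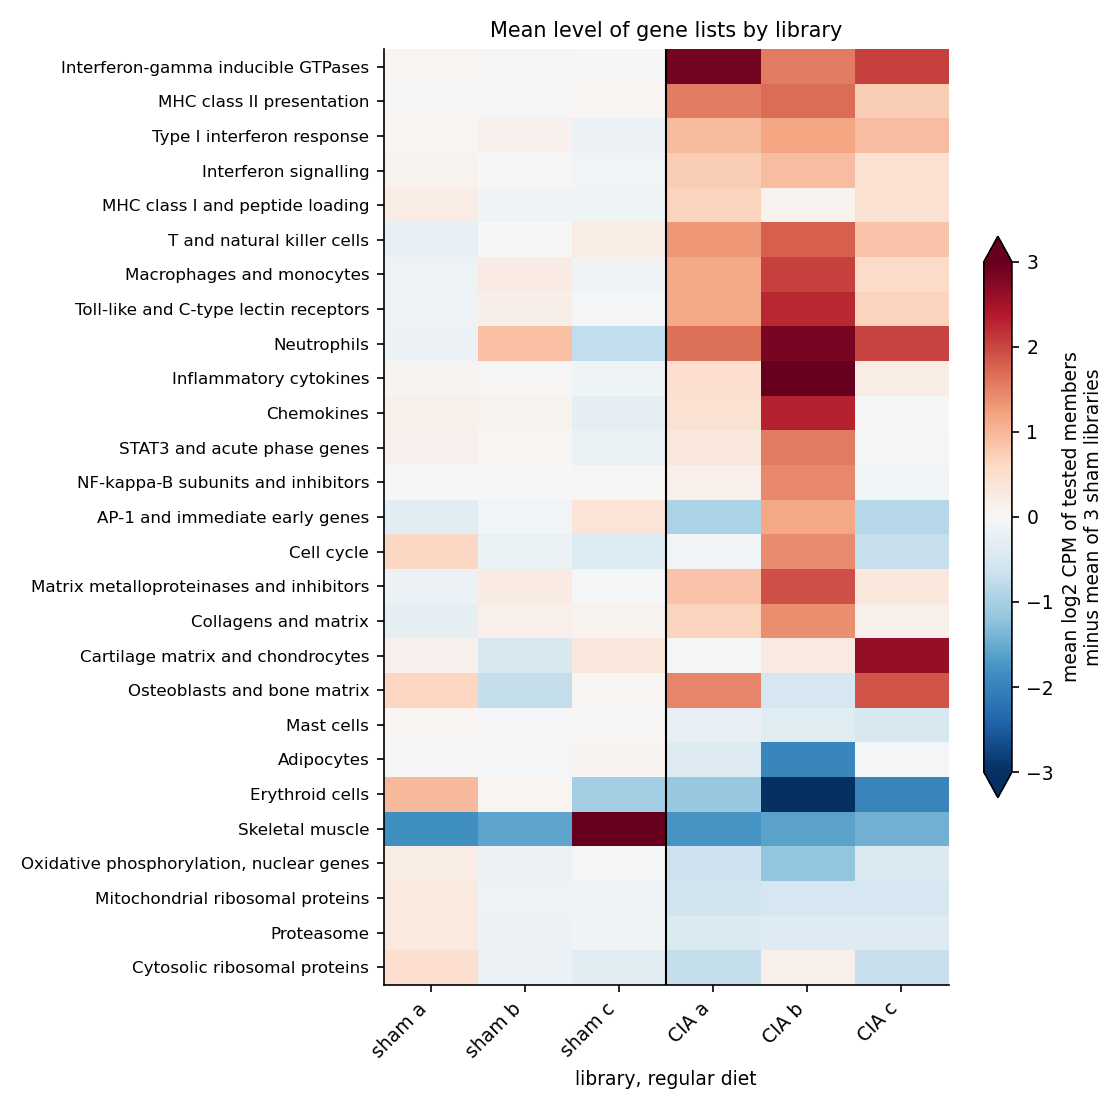
Mean log2 CPM of the tested members of 27 gene lists in each regular-diet library, minus the mean of the 3 sham libraries. The GTPase and MHC class II lists are high in all 3 CIA libraries, the cytokine list in CIA b, the cartilage list in CIA c and the muscle list in sham c.

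Fat, red cell and muscle genes stood lower in CIA and varied with single libraries. Of 17 adipocyte genes 15 stood lower and 6 lay below sham in every CIA library, with a median of -0.62, and -0.24 without CIA b. Adipoq, the hormone adiponectin, stood at 2641, 1909 and 2413 CPM in sham and 1383, 483 and 1571 CPM in CIA. Fabp4, a fatty acid carrier of adipocytes, was the most abundant of these genes in CPM, at 12450 to 20460 CPM in sham and 3675 to 10440 CPM in CIA (-1.12 ± 0.50 SE, adjusted p = 0.284). CIA b was the lowest library for both. Lipid synthesis genes had 9 of 17 members higher, 0 above and 1 below sham in every CIA library, and a median of 0.08, or 0.48 without CIA b. Elovl6, a fatty acid elongase, stood at 345 to 396 CPM in sham, 1042 and 658 CPM in CIA a and c, and 192 CPM in CIA b, whereas Dgat1, which completes triglyceride synthesis, stood at 279 to 339 CPM in sham and 209, 133 and 256 CPM in CIA. The erythroid list summed to 7470, 5960 and 2740 CPM in sham and 1560, 305 and 1440 CPM in CIA, with 6 of 14 members below sham in every CIA library against 13.0% of all genes, and a median of -2.29, or -1.88 without CIA b. The muscle list had a median of -3.15, with -3.46 without CIA b and 0.46 without sham c.

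**Figure D5:**
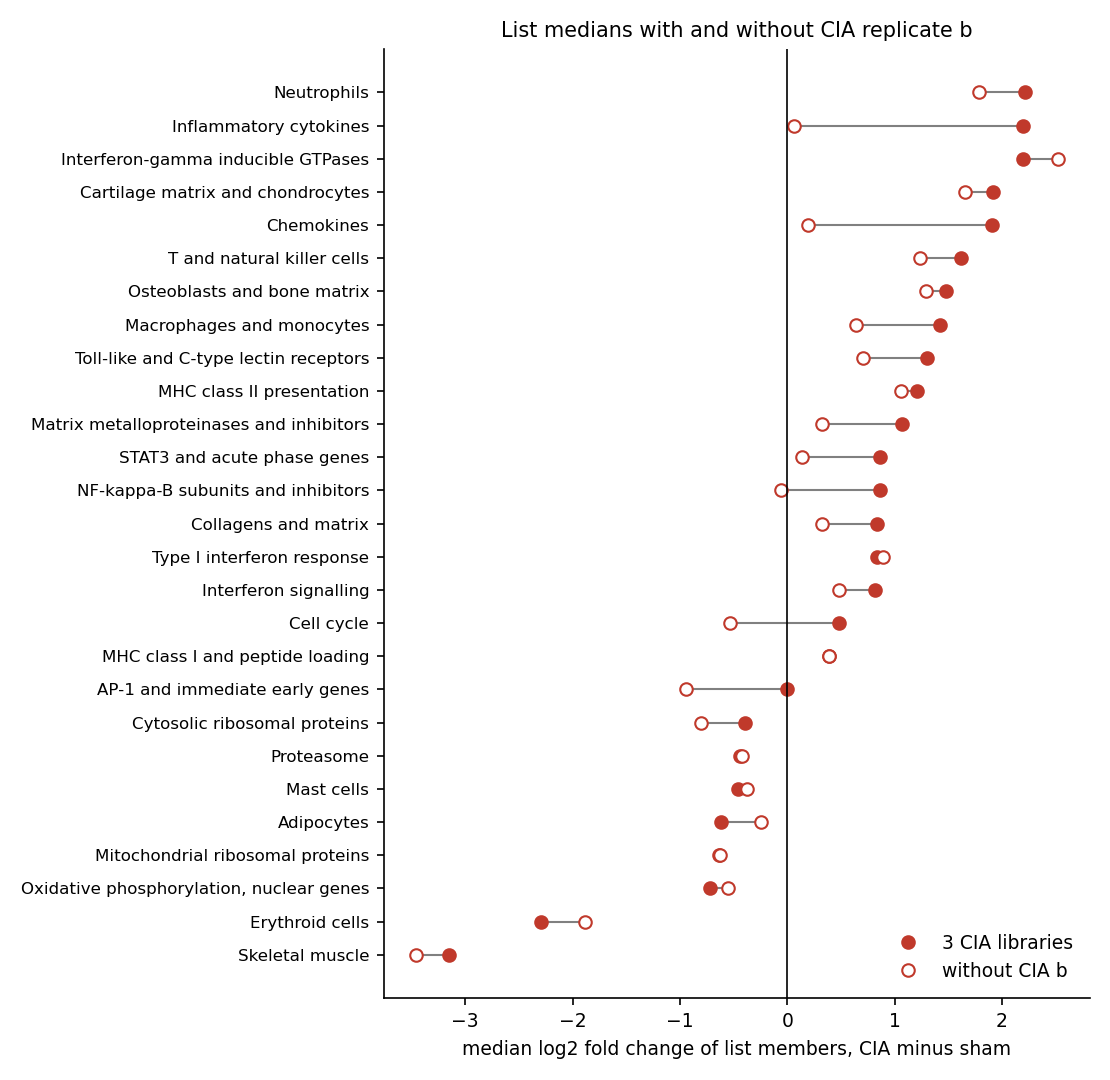
Median log2 fold change of the tested members of 27 gene lists, CIA minus sham, with all 3 CIA libraries (filled) and without CIA b (open). The cytokine, chemokine and NF-kappa-B medians move to near 0 without CIA b, while the GTPase, MHC class II, oxidative phosphorylation and mitochondrial ribosome medians change by at most 0.32.

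The largest differences among genes with a mean log2 CPM of 1 or more, an unadjusted p under 0.05 and no overlap had CIA b as their highest library in most genes on the higher side. Of the 12 largest, Serpina3g and Serpina3i had log2 fold changes of 4.03 and 3.65 without CIA b. The other 10 were Il1b, Cd300lf, Mmp13, Il1rn, Mefv, Cxcr2, Csf3r, Trpm2, Sirpb1c and Slfn4. In each of these CIA b was the highest library, with log2 fold changes between 4.38 and 5.58, and between 0.94 and 3.30 without CIA b. Most are genes of neutrophils and macrophages: Il1rn encodes the interleukin-1 receptor antagonist, Mefv the inflammasome protein pyrin and Slfn4 an interferon-induced Schlafen protein. On the lower side Nnat, neuronatin, stood at 566, 558 and 284 CPM in sham and 136, 21.3 and 215 CPM in CIA. The immediate early gene Arc stood at 4.22, 6.85 and 7.34 CPM in sham and 1.64, 1.57 and 1.80 CPM in CIA, and there the 3 CIA libraries were alike. Gkn3 stood at 9.39, 4.82 and 5.11 CPM in sham and 1.83, 0.589 and 1.86 CPM in CIA. Ugt1a8 stood at 142, 10.4 and 6.56 CPM in sham and at 1.96 to 3.60 CPM in CIA, so its log2 fold change of -4.28 rests mostly on sham a.

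The libraries labelled high-fat gave the same measure in other samples. Of the 1818 genes with every regular-diet CIA library above sham, 73.5% also had every high-fat CIA library above every high-fat sham library, against 27.5% of all tested genes, and 24 genes went the opposite way. Of the 1936 genes below sham, 72.4% were also below on the high-fat diet, against 27.7% of all tested genes, and 12 went the opposite way. Serpina3i stood at 1.92 and 1.05 CPM in high-fat sham and at 47.1, 25.4 and 26.4 CPM in high-fat CIA (4.46 ± 0.46 SE, adjusted p = 0.00962). Serpina3g and Serpina3f also rose there, by log2 fold changes of 3.05 ± 0.52 and 3.58 ± 0.68 (SE, adjusted p = 0.0185 and 0.0209). The GTPase, MHC class II and oxidative phosphorylation lists had high-fat medians of 1.54, 0.98 and -0.65. The cytokine and chemokine lists had high-fat medians of 3.74 and 3.03, with 16 of 16 and 19 of 23 members higher. MHC class I (-0.18) and cartilage (0.18) had medians near 0 there, against 0.39 and 1.92 on the regular diet. The mast cell proteases Mcpt4 and Cma1 had high-fat log2 fold changes of -0.49 ± 0.28 and -0.43 ± 0.34 (SE, adjusted p = 0.265 and 0.408).

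The difference between the 2 CIA effects was tested as an interaction, and 0 genes passed (0%, smallest adjusted p = 0.864, 635 genes at an unadjusted p under 0.05, and 21 genes called by DESeq2). Ccl22, a chemokine for T helper and regulatory T cells, had that smallest value. It stood at 0.557, 1.33 and 0.918 CPM in regular-diet sham and 4.92, 6.22 and 6.11 CPM in regular-diet CIA, and at 5.77 and 4.20 CPM in high-fat sham and 2.79, 2.71 and 1.32 CPM in high-fat CIA. No difference between the diets was called by edgeR for any gene named here.

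The authors' deposited table gives a DESeq2 q-value for 17796 genes in this comparison, of which 445 are under 0.05 (288 higher and 157 lower in CIA). Of the 445 genes in the authors' deposited table, every CIA library lay above every sham library in 278 and below in 156. Over all genes tested these shares were 12.2% and 13.0%. The q-values compare the same sham and CIA libraries, so little overlap follows from the selection and is no independent support. The 4 genes called by edgeR are among the 445.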

How the data were processed

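RNA from synovial membrane was extracted with Trizol and sequenced from a BGI library kit, per the labels' protocols; whether reads were counted by strand is not given in the sources used here. Bowtie2 2.2.5, RSEM 1.2.12, DESeq2 1.4.5 and GRCm38.p6 are named in the submitters' processing notes. The authors deposited RSEM expected counts and TPM per gene and library, and the authors' deposited log2 fold changes and DESeq2 q-values per comparison.

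Expected counts (11.98% not whole, tolerance 0.001) were rounded. edgeR 4.0.16 (R 4.3.3) was run with TMM scaling, filterByExpr, 1 mean per group over all 11 libraries and the robust quasi-likelihood test, with Benjamini-Hochberg adjustment over 14892 genes; TPM served only to compare levels between genes. CPM use TMM-scaled totals. DESeq2 1.42.0 and limma 3.58.1 were alternatives, and the tests were tested on simulated data. Genes and lists were chosen with earlier results of these data known. Named genes are those with an adjusted p under 0.05, the 12 largest differences each way among genes with a mean log2 CPM of 1 or more, an unadjusted p under 0.05 and no overlap, up to 4 members of each list with the smallest p, members of the Serpina3, MHC, GTPase and interferon signalling lists, up to 6 genes that set 1 library apart, and the first 2 members of each cell type list with Il1b, Il6, Tnf, Mmp3, Mmp13 and Prg4. Outside that rule, Krtdap, Flg, Krt15, Oas2, Isg15, Usp18, Irf7, Rsad2, Cd3g, Lyve1, Tlr2, Fcgr2b, Fcer1g, Cxcl1, Sost, Timp1, Gata2, Htra4, Fos and Ccl22 were chosen after their values were seen. Alternatives for the counts of genes without overlap were chosen after seeing the data. Some results are not reported here.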

Additional observations from a re-analysis of the deposited data

How the results depend on the processing

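Few genes pass the adjusted test with 3 libraries a group, and the number depends on the tool and on single libraries. Against 4 genes called higher and 0 lower, DESeq2 called 467 and 370, limma voom called 1 higher, and a fit on only the 6 regular-diet libraries called 0. Leaving out 1 of the 11 libraries at a time gave 0 to 16 genes called higher and 0 lower. At an unadjusted p under 0.05 these fits gave 649 to 1666 genes higher and 624 to 1633 lower. DESeq2 called 21 genes for the difference between the CIA effects of the diets. Genes without overlap numbered 2158 to 3929 above and 2274 to 4118 below sham when 1 of the 6 libraries was left out. The highest counts came from leaving out CIA b, and the other 5 gave at most 2596 and 2654. Nothing in the labels says that the letters a, b and c pair the samples. Deviations of same-letter samples correlated at -0.18, -0.14 and 0.08. These values cannot settle the pairing, since each deviation was taken from a mean of 3 libraries. A fit with the replicate block called 4 genes higher and 1 lower. Of 249 named genes that were not called, 13 changed sign without CIA b and 10 under another of the 18 alternatives. The causes were not tested. Depth limits genes with few counts, such as Serpina3f in sham.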
